A study of Mus musculus with 4 samples.

Results

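The mitochondrial complex I genes were taken as the rows whose gene symbol starts with Nduf, and 45 of the 23420 gene symbols in the table met this rule. They comprised 36 nuclear subunits of complex I, 7 assembly factors (Ndufaf1 to Ndufaf7), and Ndufa4 and Ndufa4l2, which carry the family name but belong to complex IV. RNA-seq was carried out on pachytene spermatocytes isolated by FACS from wild-type C57BL/6 mice at 23 weeks of age and cultured for 24 h. The control (Ctrl) cells received DMSO, the solvent, and the treated cells received AZ20, which inhibits ATR, at 10 μM. There were 2 libraries of 15000 cells per condition, and according to the methods each mouse gave cells to both conditions. The study asked whether ATR signalling is needed to keep the X and Y chromosomes silent in cells that had already silenced them.

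Complex I (NADH:ubiquinone oxidoreductase) is the entry enzyme of the respiratory chain. It passes electrons from NADH to ubiquinone and pumps protons across the inner mitochondrial membrane, with its redox centres in a peripheral arm that reaches into the matrix and its proton channels in a membrane arm. Core subunits carry out the chemistry, accessory subunits hold the arms together, and assembly factors join the modules and then leave. Pachytene spermatocytes oxidise lactate and pyruvate in their mitochondria, and at this stage meiotic sex chromosome inactivation (MSCI) silences the X chromosome, which carries the genes of the membrane-arm accessory subunits Ndufa1 and Ndufb11. Both proteins are required to build the complex in other cells.

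The values were deposited as TPM, an abundance of transcripts scaled to gene length and to the library total, so levels of different genes within a library can be set side by side. The reads behind the values summed to 14331836 and 16274507 on genes in Ctrl and to 20746479 and 18879634 in AZ20. The labelled cell type was checked with markers. The 9 pachytene markers summed to between 11670 and 11686 TPM in Ctrl and between 11903 and 11935 TPM in AZ20. Much of this sum came from Ldhc, at 5216 to 6178 TPM across the libraries, and Ccna1 was the lowest of the 9. The 6 Sertoli cell markers summed to less than 1 TPM in each library (0.0463 to 0.934), and 4 macrophage, 3 myoid and 5 Leydig cell markers to at most 1.34, 1.61 and 2.31 TPM. The 6 spermatogonial markers summed to between 7.99 and 20.5 TPM, mostly from Uchl1, with Kit, Stra8, Zbtb16 and Dmrt1 below 1 TPM in all libraries. The 6 round spermatid markers summed to 149 and 365 TPM in Ctrl and to 251 and 771 TPM in AZ20, ranges that overlapped, and their part in the results below was not tested.

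The members lie on 16 chromosomes, 43 of them on autosomes and 2 on the X. RefSeq promoter windows of 300 bases (250 before the gene start and 50 after it, GRCm38.p6) were found for 39 members and searched on both strands for the letters of motifs known from mitochondrial and ubiquitous promoters. The YY1 letters AAGATGGC stood in the window of 7 members (17.9%), against 3.19% of 27025 genes with a window. All 7 matches lay downstream of the gene start, in the reading direction of the gene, and that arrangement was found for 1.04% of all genes. These matches are printed because they recur in members from the core, peripheral and membrane classes. Ndufc1 and Ndufb8 had the highest deposited TPM of all subunits. The others, Ndufs6, Ndufa3, Ndufa9, Ndufs4 and Ndufs7, ranked 17th, 18th, 20th, 23rd and 27th of the 36 subunits in Ctrl. Capitals mark the matched letters, and every sequence is written 5′ to 3′ on the strand of its gene.
Ndufc1 (chr3:51408915-51408944, minus strand): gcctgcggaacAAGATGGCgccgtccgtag
Ndufb8 (chr19:44555393-44555422, minus strand): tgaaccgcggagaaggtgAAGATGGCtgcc
Ndufa3 (chr7:3617384-3617413, plus strand): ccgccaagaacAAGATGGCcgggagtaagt
Ndufa9 (chr6:126849097-126849126, minus strand): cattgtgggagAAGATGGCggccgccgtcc
Ndufs4 (chr13:114388045-114388074, minus strand): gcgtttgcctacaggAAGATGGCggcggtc
Ndufs6 (chr13:73328433-73328462, minus strand): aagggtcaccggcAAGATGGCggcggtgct
Ndufs7 (chr10:80249462-80249491, plus strand): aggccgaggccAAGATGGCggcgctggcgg

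The NRF1 letters GCATGCGC stood in 5 of the 39 windows (12.8%) and in 3.05% of all windows. NRF1 is a transcription factor known for nuclear genes of the respiratory chain. The matches were in the accessory subunits Ndufa6, Ndufa8 and Ndufa11 and in the assembly factors Ndufaf4 and Ndufaf5, and they are printed to set beside the YY1 matches, since no member held both. In Ndufa11, Ndufaf4 and Ndufaf5 the letters also matched on the opposite strand, 2 bases earlier. Capitals mark the match in the reading direction of the gene.
Ndufa6 (chr15:82354356-82354385, minus strand): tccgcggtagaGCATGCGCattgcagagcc
Ndufa8 (chr2:36049328-36049357, minus strand): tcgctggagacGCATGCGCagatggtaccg
Ndufa11 (chr17:56717693-56717722, plus strand): ctgcactgcgcGCATGCGCgcacgccttgt
Ndufaf4 (chr4:24897961-24897990, plus strand): cagatgtctgcGCATGCGCctgtgcggaag
Ndufaf5 (chr2:140170653-140170682, plus strand): gtcccgttggcGCATGCGCctaatagaaac

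The promoters of the 2 X-linked subunits held different letters, and both are shown because these genes gave the results that follow. The Ndufa1 window had a single GC box (GGGCGG, found in 51.3% of member windows and 38.2% of all) and no CCAAT box. The Ndufb11 window had no GC box and 4 matches to CCAAT, which 33.3% of member windows and 41.1% of all windows held. All of these matches were on the opposite strand, so capitals show the reverse complement. The match nearest to the gene start is printed for Ndufb11. Ndufa1 had 29 CpG dinucleotides in the window and Ndufb11 had 14, beside medians of 20 over the members and 8 over all genes. The matches of different motifs did not overlap in any member, and a match is a description of letters, not evidence of binding.
Ndufa1 (chrX:37191446-37191475, minus strand): cgccgctcctttCCGCCCaggctttttgaa
Ndufb11 (chrX:20617625-20617654, minus strand): aaaagagtagctATTGGctacccctaagag

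The ETS letters CCGGAAGT stood in 1 member window (2.56%, Ndufs3) and in 4.31% of all. The TATA box letters TATAAA stood in 4 (10.3%) and in 15.7% of all. The letters AACNGTT, read by MYB factors such as the pachytene factor A-MYB, stood in no member window and in 5.01% of all. That count says only that these letters are not in the windows.

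The subunits were expressed over a wide range that the libraries shared. The median of the 36 subunits was 744 and 735 TPM in Ctrl and 715 and 750 TPM in AZ20. In every library 17 subunits were above 1000 TPM and 5 were below 100 TPM. In the deposited TPM Ndufs1 was the lowest autosomal subunit of each library apart from Ndufs5, and Ndufc1 was the highest. Without Ndufs5, the 33 remaining autosomal subunits spanned 148-fold and 123-fold from lowest to highest in Ctrl and 110-fold and 106-fold in AZ20. The SD of their log2 TPM was 1.74 and 1.69 in Ctrl and 1.69 and 1.71 in AZ20. All 45 members together made up 4.56% and 4.53% of the TPM in Ctrl and 4.14% and 4.57% in AZ20.

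**Figure D1:**
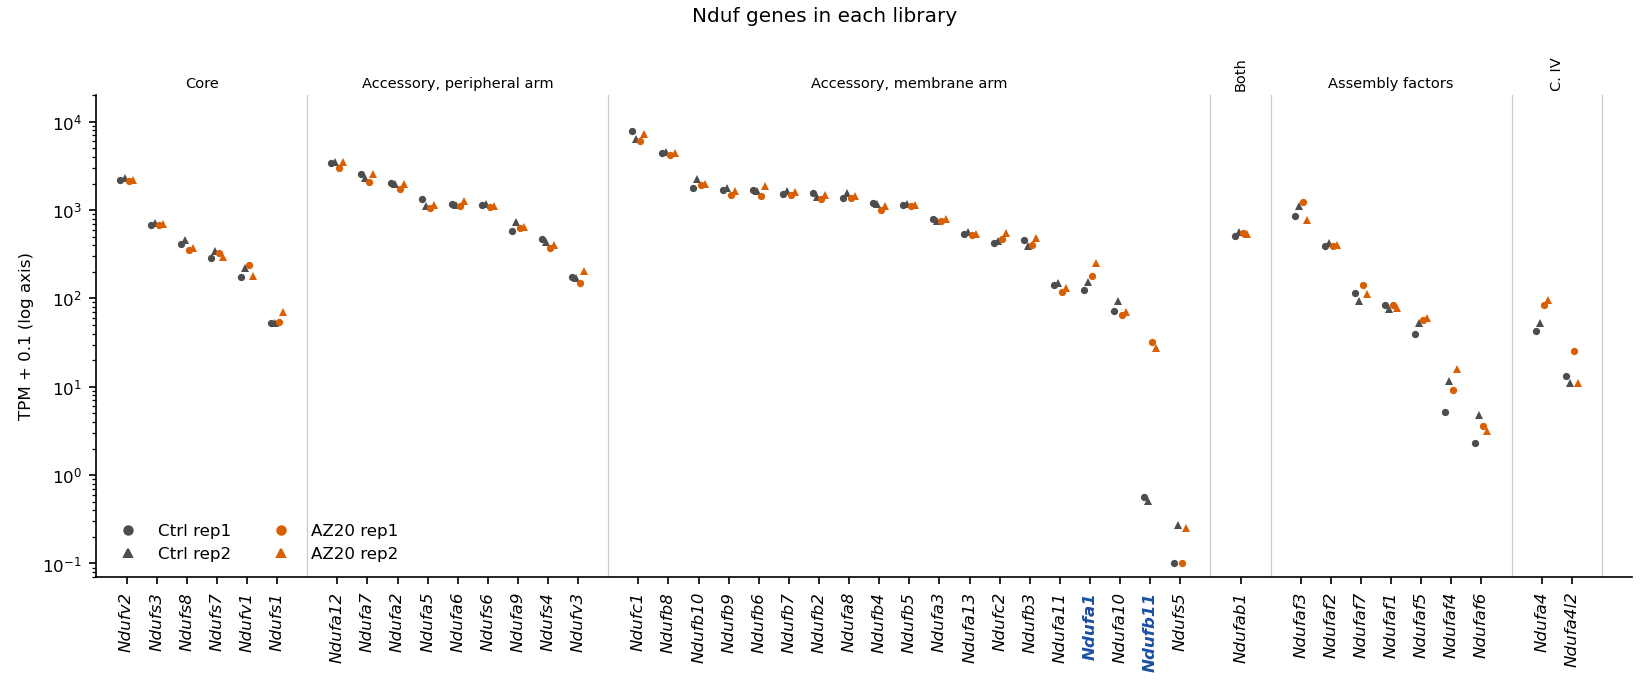
Level of 44 of the Nduf genes in the 4 libraries, as TPM + 0.1 on a log axis, ordered within each class by the mean Ctrl level (C. IV, the complex IV genes; Both, Ndufab1, which sits in both arms). Points of the 4 libraries lay close together for nearly every gene, and Ndufb11 was the exception, below 1 TPM in Ctrl and near 30 TPM in AZ20 (mean 29.6).

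In the deposited TPM the 4 highest subunits in Ctrl were all accessory. Ndufc1, of the membrane arm, was at 7806 and 6460 TPM in Ctrl and 5996 and 7362 TPM in AZ20. Ndufb8, of the distal membrane arm, was at 4394 and 4577 TPM in Ctrl and 4165 and 4433 TPM in AZ20. In Ctrl these levels were 964% ± 120 and 607% ± 22.9 of the median subunit (SD, n = 2). Ndufa12, of the peripheral arm, was at 3449 and 3467 TPM in Ctrl and 2963 and 3517 TPM in AZ20. Ndufa7, also of the peripheral arm, was at 2557 and 2323 TPM in Ctrl and 2096 and 2566 TPM in AZ20. For all 4 genes the ranges of the groups overlapped, and the order was the same in both groups, although in AZ20 the values of Ndufa7 enclosed those of the next gene, Ndufv2 (2108 and 2174 TPM), so this pair could not be ordered there. The order below Ndufc1 may also depend on gene length. For Ndufb8 and Ndufa12 the length behind the TPM was recovered with a common factor of the reads that was not settled. Their values at another length are therefore provisional. With the recovered lengths, at the longest matched GENCODE transcript the mean Ctrl level of Ndufb8 would be 1342 TPM and that of Ndufa12 1748 TPM. Both would be below the core subunit Ndufv2 at 1944 TPM, while Ndufc1 would stay the highest at 9375 TPM.

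The 7 core subunits were on the whole lower than the accessory ones. Their median was 285 and 345 TPM in Ctrl and 328 and 293 TPM in AZ20, beside medians of 1185 and 1144 TPM for the 9 peripheral-arm accessory subunits and 1153 and 1164 TPM for the 19 membrane-arm ones in Ctrl. The exception was Ndufv2, an iron-sulfur protein of the NADH-oxidising module, the fifth highest subunit. Its partner Ndufv1, which holds the flavin, was at 175 and 221 TPM in Ctrl and 236 and 181 TPM in AZ20. Ndufs1, the large iron-sulfur protein that joins this module to the rest of the arm, was at 52.6 and 52.4 TPM in Ctrl and 54.7 and 69.3 TPM in AZ20. In the deposited TPM Ndufs1 was thus the lowest autosomal subunit apart from Ndufs5, at 7.1% ± 0.0446 of the median subunit in Ctrl (SD, n = 2). This rank may depend on gene length. At the longest matched GENCODE transcript the mean Ctrl level of Ndufa10 would be 49.4 TPM, below that of Ndufs1 at 57.7 TPM. The value for Ndufa10 is provisional, since the recovered length behind its TPM was not settled.

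Ndufs5, an accessory subunit on the outer face of the membrane arm, was listed at 0 TPM in Ctrl rep1 and AZ20 rep1, at 0.17 TPM in Ctrl rep2 and at 0.15 TPM in AZ20 rep2. These values are 0, 0, 1 and 1 reads. A count of 0 allows up to 0.584 TPM in Ctrl rep1 and 0.405 TPM in AZ20 rep1. Of the 50-base windows of its transcript, 41.2% also occur in the annotated processed pseudogene BC002163, whose own row was at 13.9 and 11.4 TPM in Ctrl and 14.5 and 13.2 TPM in AZ20, and only reads with a unique alignment were counted. The part of these shared windows in the low count was not tested. Ndufs5 was the only member that did not pass the filter on the mean level and so was not tested for a change.

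The assembly factors were lower than the subunits at the median and ranged widely. Ndufaf3, which acts early on the ubiquinone-binding module, was at 859 and 1113 TPM in Ctrl and 1221 and 766 TPM in AZ20, above the median subunit. Its partner Ndufaf4 was at 5.05 and 11.5 TPM in Ctrl and 8.98 and 15.8 TPM in AZ20, so the levels of these partners differed by a wide margin in every library. Ndufaf2, a relative of Ndufa12 that holds its place during assembly, was at 397 and 425 TPM in Ctrl and 392 and 402 TPM in AZ20.

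Ndufaf7, a methyltransferase, was at 114 and 92.5 TPM in Ctrl and 142 and 113 TPM in AZ20. Ndufaf1, of the membrane-arm assembly complex, was at 83.2 and 76.2 TPM in Ctrl and 83.3 and 78.8 TPM in AZ20. Ndufaf5, which hydroxylates Ndufs7, was at 39.7 and 52.4 TPM in Ctrl and 56.9 and 60.4 TPM in AZ20. It was the only assembly factor whose groups did not overlap, with both AZ20 libraries above both Ctrl libraries. That is 14.3% of the 7, where 26.4% of all genes tested below were higher in this sense. Ndufaf6 was lowest, at 2.2 and 4.73 TPM in Ctrl and 3.5 and 3.03 TPM in AZ20.

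The median assembly factor was at 11.2% and 10.4% of the median subunit in Ctrl and at 11.7% and 10.5% in AZ20. On the log2 scale this ratio was -3.22 ± 0.08 in Ctrl and -3.18 ± 0.10 in AZ20 (SD, n = 2 each), a difference of 0.04, smaller than either SD (exact permutation test over libraries, two-sided p = 0.667; with 2 libraries against 2 the smallest p this test can give is 0.333).

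The change with AZ20 was tested with limma on log2(TPM + 1) across all 10316 genes with a mean above 1 TPM in Ctrl or AZ20, and genes that changed 2-fold or more with an adjusted p under 0.05 (Benjamini-Hochberg) are referred to as called. In bulk libraries such as these, a change in the share of a cell type and a change in RNA per cell cannot be told apart. Of the 45 members 44 passed this filter on the mean level. Ndufb11 was the only member called, and it rose. Of all tested genes 2.28% were called higher and 0.0485% lower, and of the 340 tested X-linked genes 63.5% were called higher. No member was called lower by limma, none was lower at an unadjusted p under 0.05, and none was called lower by voom on the recovered reads. At an unadjusted p under 0.05, 3 members were higher (Ndufb11, Ndufa4 and Ndufa1), where this held for 8.03% of all tested genes, and 1.13% of all tested genes were lower.

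The median change of the 44 tested members was -0.04 on the log2 scale, beside 0.07 over all tested genes. The change was under 0.3 in size for 38 of the 44, with standard errors from 0.11 to 0.41 (median 0.15). By class, the median change was -0.03 for the core subunits, -0.08 for the peripheral-arm and -0.05 for the membrane-arm accessory subunits, and 0.02 for the assembly factors. Both AZ20 libraries were above both Ctrl libraries for 6 members (13.6% of those tested), where 26.4% of all tested genes were. Both AZ20 libraries were below both Ctrl libraries for 11 members (25%), all of them autosomal subunits, where 11.7% of all tested genes were. The 45 nuclear genes of complexes II to V gave a similar picture, with a median change of -0.03 over the 41 tested, 3 higher and 7 lower in this sense and 1 called, the X-linked Cox7b.

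**Figure D2:**
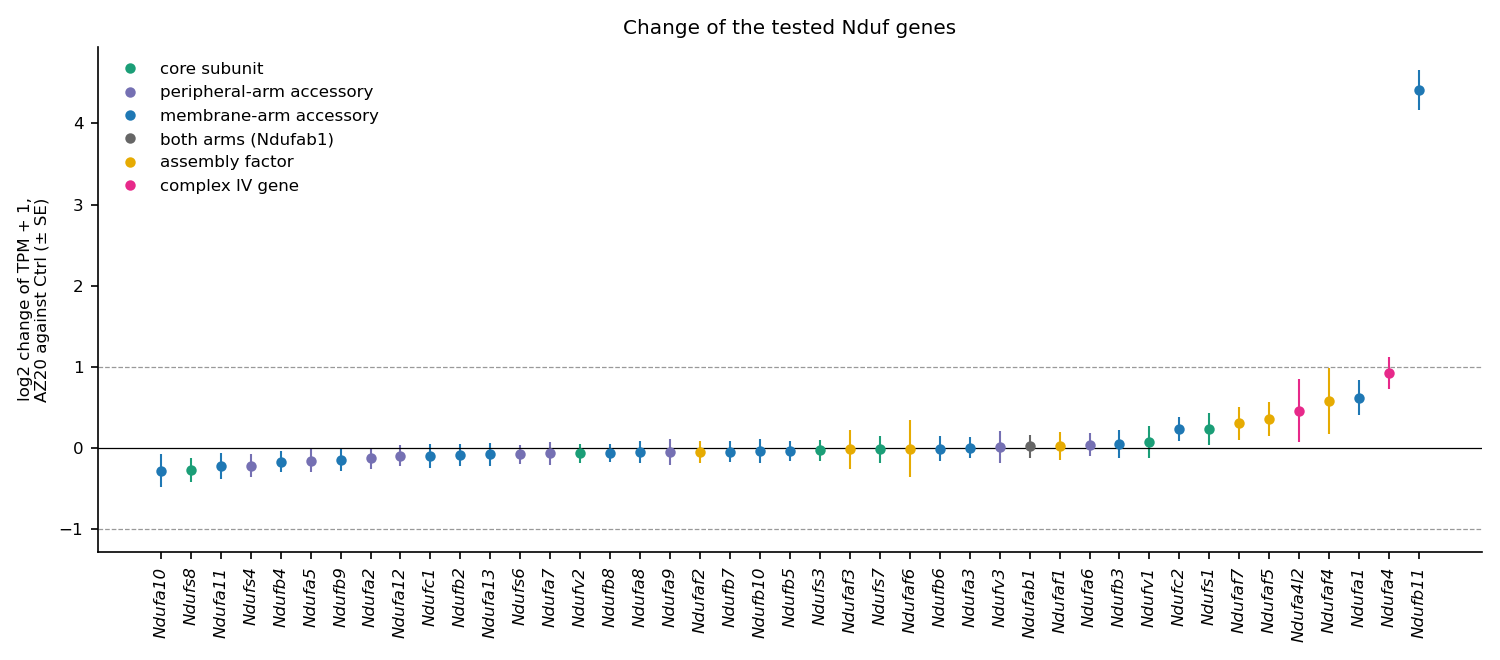
Change of log2(TPM + 1) with AZ20 for 43 of the tested Nduf genes, coloured by class, with the standard error from limma, and dashed lines at a 2-fold change. Ndufb11, at 4.41, stood apart, the other members lay between -0.28 and 0.92, and none of these others was called.

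In Ctrl, Ndufb11 was the lowest subunit after Ndufs5, at 0.465 TPM in rep1 and 0.407 TPM in rep2, from 4 reads in each library. In AZ20 it was at 31.8 TPM in rep1 and 27.5 TPM in rep2, from 394 and 308 reads. The groups did not overlap. The log2 change was 4.41 (SE 0.25, limma adjusted p = 0.000107), and it was 4.48 and 4.34 in the replicate pairs. Since adding 1 to the TPM shrinks the change of a low gene, the ratio of the mean TPM, 68.0-fold, is larger, and from the 8 Ctrl and 702 AZ20 reads the ratio was 68.6 with an exact 95% interval from 34.6 to 160, which covers counting error only. With either AZ20 library left out the log2 change was 4.31 (without rep1) and 4.51 (without rep2), but the adjusted p was 0.0946 and 0.07 and none of the 10316 genes was called, although 871 and 737 had an unadjusted p under 0.05.

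Ndufa1 was at 124 TPM in Ctrl rep1 and 152 TPM in Ctrl rep2, from 619 and 867 reads, and at 179 TPM in AZ20 rep1 and 251 TPM in AZ20 rep2, from 1285 and 1625 reads. Both AZ20 libraries were above both Ctrl libraries. The log2 change was 0.62 (SE 0.22, unadjusted p = 0.0249, adjusted p = 0.414 with limma), so it did not pass the test. With the replicate number as a block, which follows the pairing of the libraries, the log2 change was 0.62 and the limma adjusted p was 0.0956. Ndufa1 was not called there either. Ndufa1 was thus already present in Ctrl, at 18.7% ± 2.84 of the median subunit (SD, n = 2), and at 29.3% ± 5.96 in AZ20. It ranked 31st of the 36 subunits in Ctrl and 28th in AZ20. In Ctrl its level was above that of the autosomal Ndufa10 (71.3 and 93.8 TPM) and overlapped that of Ndufa11 (143 and 148 TPM). The overlap with Ndufa11 depended on the length of 2661 bases behind its TPM, since at the longest matched GENCODE transcript, of 545 bases, the mean Ctrl level of Ndufa11 would be 710 TPM and that of Ndufa1 163 TPM.

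Set against the same median, Ndufb11 was at 0.0589% ± 0.00505 in Ctrl and at 4.06% ± 0.548 in AZ20, where it was still below the lowest autosomal subunits other than Ndufs5. Within each library Ndufa1 exceeded Ndufb11 by 268-fold in Ctrl rep1 and 375-fold in Ctrl rep2, and by 5.64-fold in AZ20 rep1 and 9.13-fold in AZ20 rep2. The log2 ratio of Ndufb11 to Ndufa1 was -8.31 ± 0.34 in Ctrl and -2.84 ± 0.49 in AZ20 (SD, n = 2 each). The difference of 5.46 was many times the spread between libraries. The Ctrl values of Ndufb11 rest on 4 reads in each library, so counting error is wider than their SD shows. The exact permutation test gave the smallest two-sided p that 2 against 2 libraries allow, 0.333.

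The position of Ndufa1 on the X was examined next. Among the 340 tested X-linked genes Ndufa1 had the highest mean in Ctrl (138 TPM), and it was the only X-linked gene with a mean above 10 TPM. The next highest, Tsga8, was at 7.95 and 9.62 TPM in Ctrl, so that Ndufa1 exceeded it 15.8-fold. The median of the other tested X-linked genes was 0.0922 TPM in Ctrl. Ndufa1 alone made up 35% and 52.5% of all X-linked TPM in Ctrl, and 1.88% and 2.72% with AZ20. In AZ20 it ranked 8th among the tested X-linked genes, and Ndufb11 ranked 64th. Only 19 of the 340 genes had a smaller log2 change than Ndufa1, where the X-linked median was 2.61, and the change of Ndufb11 was the 68th largest.

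**Figure D3:**
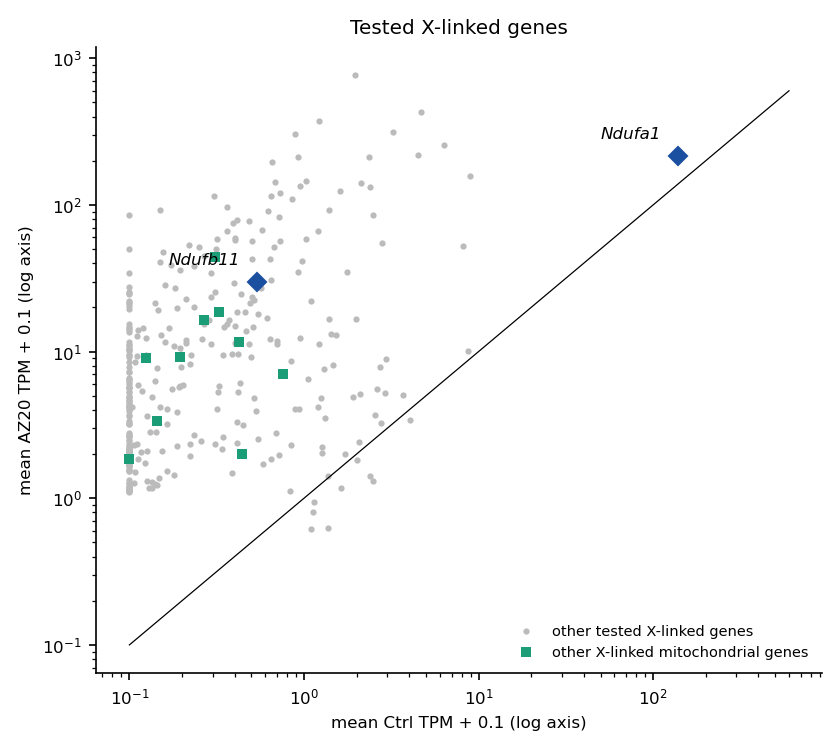
Mean level of each of the 340 tested X-linked genes in Ctrl (horizontal) and AZ20 (vertical), as TPM + 0.1 on log axes, with the line of equal levels. Ndufa1 lay alone at the right, near the line, while Ndufb11 and the 10 other X-linked genes of mitochondrial proteins lay with the bulk of the genes, below 1 TPM in Ctrl and above the line.

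Other X-linked genes of mitochondrial proteins did not share the Ctrl level of Ndufa1. Of 13 such genes, the highest value in any Ctrl library was 1.31 TPM, in Hccs, which attaches haem to cytochromes c. Of the 10 that were tested, 7 were called higher, a share near the 63.5% of tested X-linked genes. All 10 had both AZ20 libraries above both Ctrl libraries. All 10 passed the filter only through their AZ20 level, which favours this. Slc25a5, an ADP/ATP carrier, was at 0 and 0.42 TPM in Ctrl and 52.3 and 35.9 TPM in AZ20. Timm17b, of the inner-membrane protein import channel, was at 0.121 and 0.211 TPM in Ctrl and 17 and 15.7 TPM in AZ20. Cox7b, a complex IV subunit, was at 0 and 0.0866 TPM in Ctrl and 2.61 and 3.88 TPM in AZ20. Pdha1 and Timm8a1 were listed at 0 in all libraries.

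Genes beside Ndufa1 were low or at 0 in Ctrl. Ndufa1 lies at chrX:37187588-37191238 on the minus strand (RefSeq, GRCm38.p6), and its first 17 bases overlap the start of Rnf113a1, which is read in the opposite direction and was listed at 0 TPM in both Ctrl libraries and at 6.8 and 6.04 TPM in AZ20. On the other side Nkap was listed at 0 in both Ctrl libraries and was at 2.21 and 2.81 TPM in AZ20, and Upf3b was at 1.54 and 0.158 TPM in Ctrl and 9.08 and 15.6 TPM in AZ20. Gm9, about 17 kb away (17263 bases), was at 0.477 and 1.77 TPM in Ctrl and 414 and 336 TPM in AZ20, and Rhox1 behind it was at 0 and 0.0983 TPM in Ctrl and 45.7 and 35.7 TPM in AZ20. Rnf113a1, Nkap, Upf3b, Gm9 and Rhox1 were all called higher, where 63.5% of the 340 tested X-linked genes were. Of these neighbours, Rnf113a1, Nkap, Upf3b and Rhox1 passed the filter only through their AZ20 level. The sixth neighbour, Akap14, was below 1 TPM in every library.

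Ndufb11 lies at chrX:20615326-20617619, also on the minus strand, and overlaps by 263 bases the start of Rbm10, an RNA-binding protein gene read in the opposite direction. Rbm10 was listed at 0 TPM in both Ctrl libraries and was at 2.26 and 1.11 TPM in AZ20, from 122 and 54 reads, a change that did not pass the test (limma adjusted p = 0.211). The next genes Uba1 and Cdk16 were below 1 TPM in Ctrl and at 2.47 and 3.6 TPM and 3.32 and 1.7 TPM in AZ20, with adjusted p of 0.134 and 0.204. Rgn, Slc9a7 and Chst7 on the other side were at or near 0 in all libraries. The library kit does not mark strand, so reads in the overlaps cannot be assigned to either gene. For Ndufb11, 17.5% of the 50-base windows also occur in another annotated gene, mainly the processed pseudogene Gm6444, whereas none of the Ndufa1 windows do.

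**Figure D4:**
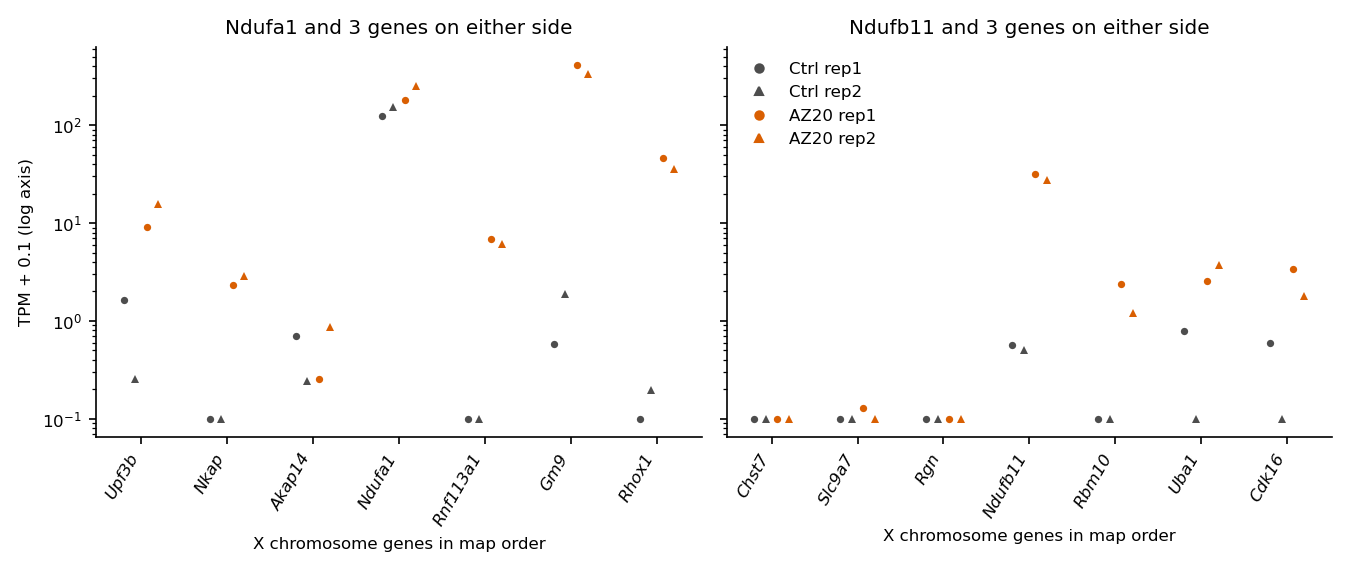
Level in each library, as TPM + 0.1 on a log axis, of Ndufa1 (left) and Ndufb11 (right) with the 3 nearest protein-coding genes of the table on either side, in map order. Ndufa1 was above 100 TPM in all 4 libraries while its 6 neighbours were below 2 TPM in Ctrl, and Ndufb11 was below 1 TPM in Ctrl like its neighbours and rose to the highest level of that stretch in AZ20.

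Apart from the X-linked subunits, the largest rises were those of Ndufa4, Ndufaf4 and Ndufa4l2, and none was called. Ndufa4, a subunit of complex IV that was first assigned to complex I, was at 42.3 and 52.0 TPM in Ctrl and 84.9 and 95.3 TPM in AZ20, from 210, 295, 607 and 615 reads. Its groups did not overlap, and the log2 change was 0.92 (SE 0.20, limma adjusted p = 0.0881), just under 2-fold. With the replicate number as a block the adjusted p was 0.00823, but the change stayed below 2-fold, so the gene was not called there either.

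Ndufa4l2, its hypoxia-responsive relative, was at 13.2 and 10.8 TPM in Ctrl and 25.6 and 10.8 TPM in AZ20. The higher AZ20 mean rested on rep1, and the log2 change of 0.46 (SE 0.39) turned to -0.13 without it. The change of Ndufaf4 was 0.58 (SE 0.41), with overlapping groups (above), and it was 0.05 without Ctrl rep1 and 1.10 without Ctrl rep2.

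The largest falls were small and none passed the test. Ndufa10, an accessory subunit with the fold of a nucleoside kinase, was at 71.3 and 93.8 TPM in Ctrl and 64.7 and 69.4 TPM in AZ20 (log2 change -0.28, SE 0.20). Ndufs8, a core iron-sulfur subunit of the path to ubiquinone, was at 417 and 464 TPM in Ctrl and 355 and 376 TPM in AZ20 (log2 change -0.27, SE 0.15). Ndufs4, a peripheral-arm accessory subunit whose loss causes encephalopathy in mice, was at 468 and 437 TPM in Ctrl and 374 and 403 TPM in AZ20 (log2 change -0.22, SE 0.14). The membrane-arm accessory subunits Ndufa11 and Ndufb4 had log2 changes of -0.22 (SE 0.16) and -0.17 (SE 0.13). In all 5 genes both AZ20 libraries were below both Ctrl libraries, where 11.7% of all tested genes were. The 5 genes were picked for their fall in these same libraries, which favours this, so it is no further support. Their limma adjusted p-values were between 0.697 and 0.809.

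Further assembly factors of complex I without the family name were counted from a list of 16. Of these 15 had a row, among them Ndufaf8 under its older symbol 1810043H04Rik, which the rule does not take in and which was at 420 and 409 TPM in Ctrl and 557 and 434 TPM in AZ20. Of the 14 tested none was called in either direction, and the median log2 change was 0.22, beside 0.07 over all tested genes. At an unadjusted p under 0.05 with limma 3 were higher, among them Aifm1, and none was lower. Over all tested genes 8.03% were higher and 1.13% lower in this sense. Aifm1 passed the filter only through its AZ20 level. The X-linked one, Aifm1, which helps import complex I subunits, was listed at 0 TPM in both Ctrl libraries and was at 1.74 and 1.78 TPM in AZ20 (log2 change 1.46, SE 0.33, limma adjusted p = 0.11).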

How the data were processed

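Per the labels and the study's methods, the authors used Trimmomatic (0.39) on paired reads of 150 bp, STAR (2.5.4b) for unique alignment to GRCm38 and featureCounts (2.0.1) with the refGene annotation of UCSC, and deposited TPM for each library. Each TPM column sums to 1000000. A total of 92 lines without a gene symbol were left out.

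Whole reads were recovered from the steps between low TPM values for 16852 of 16857 genes above 0 (99.97%, tolerance 0.005 reads). Reads of a member are printed only where the gene length settled a common factor (36 of 45 members). Precision is limited by 2 libraries in each group. Log2(TPM + 1) was fitted with limma 3.58.1 (R 4.3.3, intensity trend) for genes whose mean exceeded 1 TPM in at least one condition, after the fit had been tested on simulated data. Other values were computed with Python 3.11.15 and scipy, and genes were placed with RefSeq (GRCm38.p6), by symbol for 21571 and by synonym for 1689.

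The replicate numbers pair the libraries, because according to the methods both conditions were set up from the same animal's cells, and deviations from the group means of libraries with the same number correlated at 0.23. The block on the replicate number was an alternative.

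The members and lists were chosen with earlier results of these data known. Named singly were the X-linked members, the 4 highest and 4 lowest subunits in Ctrl, members called, the 5 largest rises and falls, the assembly factors, Ndufa4 and Ndufa4l2. Ndufv1, Ndufv2 and the genes set beside Ndufa1 were named after their values were seen. The alternatives voom on recovered reads with the block and GENCODE transcript lengths were chosen after seeing the data. The values of 1 member, which is counted in the totals, are not reported here. Subunits encoded in mitochondrial DNA and Ndufb1, of 37 nuclear subunits, were not analysed here.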

Additional observations from a re-analysis of the deposited data

How the results depend on the processing

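Ndufb11 stayed the 1 member called with a pseudocount of 0.1, without a filter on TPM, above 5 TPM, with quantile normalization (which shifted the median gene by -0.14), a common autosomal total, no trend, the replicate block, voom on recovered reads with or without the block, and without either Ctrl library. Without either AZ20 library 0 members were called, with 3 at an unadjusted p under 0.05 each time, and the log2 change of Ndufb11 was 4.31 and 4.51. With the replicate block 447 genes of the whole table were called and with no block 240, but among the members only Ndufb11 in both. The median change of the members was -0.002 with quantile normalization and -0.069 to -0.016 with a library left out. For 10 named members, 127 of 130 values kept their direction and side of the threshold. Among these members only Ndufb11 was called in the main fit, so for the others keeping the uncalled side says little. All settings drew on the same 4 libraries. Ndufb11 lost its call without either AZ20 library. Ndufa4l2 ranged from -0.13 without AZ20 rep1, a reversed sign, to 1.04 without AZ20 rep2.

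Relative to the core median, Ndufa1 was at 44% in Ctrl and 70.2% in AZ20 and Ndufb11 at 0.141% and 9.54%. Relative to the autosomal median, Ndufa1 was at 14.5% in Ctrl and Ndufb11 at 0.0456% and 3.25%. With GENCODE lengths Ndufa1 was at 24.3% and 41%. These references differ from the median of all subunits by construction. The difference of the assembly factor to subunit ratio ranged from -0.03 to 0.11 with a library left out, and was -0.01 without Ctrl rep2 and -0.03 without AZ20 rep1. With the replicate block the Ndufb11 to Ndufa1 difference was 5.46 and the assembly factor one 0.04, both with an exact permutation p of 0.5, the smallest that 2 pairs allow, and the block changed no call of a member.

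TPM of Ndufa11 and Ndufaf5 rest on gene lengths over 1.5 times the longest matched GENCODE transcript, which lowers them. Those of Ndufa5 rest on a length well below it, which raises them. The recovered lengths of Ndufb8, Ndufa12 and Ndufa10 were also well below it, but these lengths were not settled. Of 45 members 21 share 50-base windows with another annotated gene, 5 of them over 30%.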
